A study of Mus musculus with 16 samples.

Results

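The enzymes, transporters and sulfate donors that build glycosaminoglycan chains were followed in mouse intervertebral discs after deletion of Sox9. With earlier results of these data known, the 36 genes had been listed by symbol and pathway step, not by a measured value. Of these, 33 were found among the 19505 named genes of the array, each with 1 probe set, and Chpf2, Ndst1 and Glce were not analysed here. In the 4 conditional knockout mice (cKO, AcanCreERT2Sox9fl/fl), both copies of Sox9 are floxed and a Cre recombinase that tamoxifen switches on is under the control of Acan, which encodes aggrecan and is active in cartilage-like cells. The 4 control mice (CTR, Sox9fl/fl) carry the same floxed copies and no Cre is named for them. All mice were female and 3 to 4 months old, and tissue was taken 5 days after the first of 2 daily tamoxifen injections, which the labels give for cKO mice. The labels do not say whether CTR mice were injected, so the drug and the genotype cannot be told apart. The gel-like nucleus pulposus (NP) and the fibrous annulus fibrosus (AF) around it were dissected apart, and the lumbar and caudal discs of a mouse were combined, which gave 16 arrays in 4 groups of 4.

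Glycosaminoglycans are long chains of alternating sugars that hang from the core proteins of proteoglycans such as aggrecan. A short linker is built on the core protein, the chain is then extended as chondroitin or as heparan, and sulfate groups are added in the Golgi from an activated donor that is made inside the cell from imported sulfate. The many negative charges of sulfated chondroitin hold water, and in the disc this is what lets the tissue carry load. SOX9 is the transcription factor that maintains cartilage matrix genes, Acan among them.

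Values are log2 signals, so that a difference of 1 is a doubling, and signals of different probe sets were not set against each other. As a measure of background, the medians of the negative control probe sets were 6.14 to 6.59 over the arrays, and the 16-array mean of 27 of the 33 genes lay above 6.59. Arrays of the same group correlated with r of 0.963 to 0.983 across probe sets, and the number of arrays limits the precision. Sox9 checked the labels: its signals were 9.55 to 10.12 in NP cKO and 15.95 to 16.79 in NP CTR, and 11.43 to 12.99 in AF cKO and 16.39 to 17.45 in AF CTR. The tissue labels were checked with marker genes. The mean of 8 annulus and tendon markers was 7.98 to 10.08 in NP arrays and 12.78 to 14.62 in AF arrays, and that of 8 NP and notochord markers 12.59 to 13.01 in NP and 11.36 to 12.19 in AF. Of these 8 markers 4 were called higher in the NP of CTR mice, where 9.96% of all probe sets were, and none lower. Noto went the other way without passing, at 6.73 to 7.49 in NP CTR and 7.69 to 8.23 in AF CTR, Shh averaged 7.33 in NP CTR and 7.58 in AF CTR, and Foxa1 stayed below background in all arrays, at 3.4 to 4.88. In tissue samples such as these, fewer cells of a type and less RNA per cell cannot be told apart.

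With loss of Sox9, 1 gene of the pathway passed the test, and it was the same gene in both tissues. Slc26a2, the transporter that brings sulfate into the cell, fell 2.53-fold in the NP and 3.00-fold in the AF (limma, adjusted p = 0.0277 and 0.00728 over all 22206 probe sets). The share of all probe sets called at an adjusted p under 0.05 was 0.122% in the NP and 0.0991% in the AF. Over the 33 genes the median log2 difference between cKO and CTR was -0.08 in the NP, where that of all probe sets was 0, and -0.10 in the AF, where it was -0.03. In the NP 14 genes were higher in cKO and 19 lower, and in the AF 13 were higher and 20 lower, with 32 of 33 not passing the test in either tissue. At an unadjusted p under 0.05 there were 5 genes in the NP and 6 in the AF, where 4.58% and 10.6% of all probe sets had one. At the thresholds that the labels name, which ask for a fold of 1.75 or more beside an unadjusted p under 0.05, 3 genes passed in the NP (Chst3, Papss1 and Slc26a2; 1.18% of all probe sets) and 4 in the AF (Csgalnact1, Chst11, Papss2 and Slc26a2; 3.49% of all probe sets). Averaged over the tissues, Slc26a2 again was the 1 gene called (adjusted p = 0.00022), with 0.311% of all probe sets called. At the thresholds of the labels Chst11 and Papss2 joined it, where 1.38% of all probe sets passed. None of the 33 genes passed the limma test of a difference between the effects of Sox9 loss in the NP and the AF (lowest adjusted p = 0.732, 0% of all probe sets called). At an unadjusted p under 0.05 there were 3 genes, where 6.74% of all probe sets had one, and Papss2 alone also had a fold of at least 1.75, as 4.4% of all probe sets did.

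Marker signal of other cells differed between AF cKO and AF CTR arrays. The mean of 8 neutrophil markers was 10.14 to 14.25 in AF cKO and 6.55 to 12.34 in AF CTR. All 8 were higher in AF cKO at the thresholds of the labels, as 456 of all 22206 probe sets were. None passed the adjusted test (limma, lowest adjusted p = 0.125). The mean of 3 erythroid markers was 8.85 to 11.4 in AF cKO and 7.88 to 9.44 in AF CTR, with all 3 higher at those thresholds. That of 8 skeletal muscle markers was 6.65 to 10.2 in AF cKO and 6.58 to 7.47 in AF CTR. Without AF CTR replicate 1 and AF cKO replicate 3, which had the most osteoclast marker signal, the AF difference of Slc26a2 was -1.32 (adjusted p = 0.0286). Without AF cKO replicates 2 and 4, which had the most muscle marker signal, it was -1.67 (adjusted p = 0.0358). Neither choice evened out the neutrophil signal. Without AF CTR replicate 1 and AF cKO replicate 3 the neutrophil mean was 10.14 to 12.8 in AF cKO and 6.55 to 8.34 in AF CTR. The part of neutrophil and erythroid signal in the AF result of Slc26a2 was not tested.

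**Figure D1:**
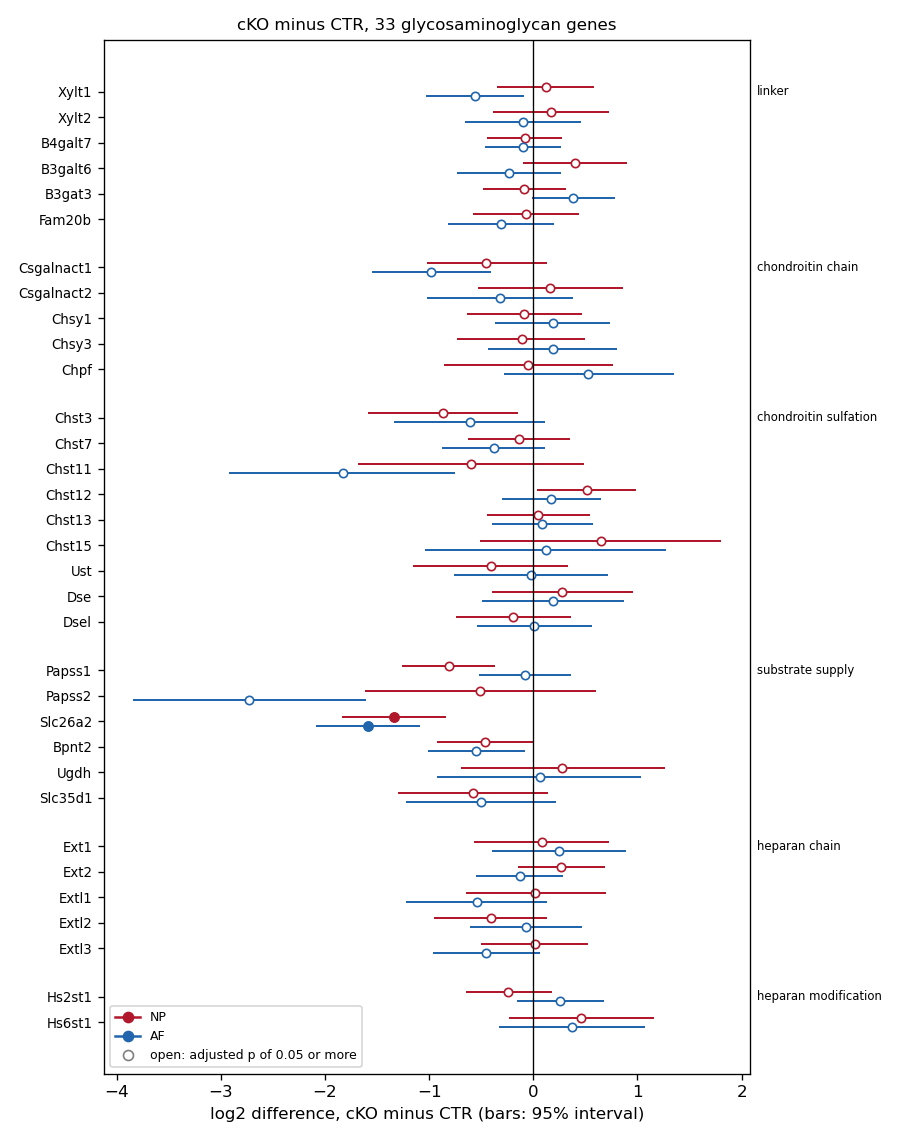
Log2 difference between cKO and CTR for the 33 genes, ordered by step of the pathway, in the NP (red, upper of each pair) and the AF (blue, lower), with the 95% interval of the limma fit as a bar. The filled points, at an adjusted p under 0.05, are both Slc26a2, at -1.34 in the NP and -1.59 in the AF.

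The tissues differed at many more steps. Between the NP and the AF of CTR mice 11 of the 33 genes passed the test, where 20.1% of all probe sets did, with 1 higher and 10 lower in the NP, where 9.96% of all probe sets were higher and 10.1% lower. In cKO mice 13 of 33 passed, where 25.9% of all probe sets did, with 3 higher and 10 lower, where 13.3% of all probe sets were higher and 12.6% lower. Array medians over all probe sets were 6.66 to 6.89, close to background, while 27 of the 33 genes had a 16-array mean above it. The part of signal level in these shares was not tested. The medians of the NP minus AF log2 differences were -0.31 over the 33 genes and 0.04 over all probe sets in CTR, and -0.18 and 0.07 in cKO. Of the genes called, 10 passed in both genotypes, Papss2 in CTR alone, and Xylt1, Bpnt2 and Hs2st1 in cKO alone, and none of these 4 passed the test above for a difference between the genotypes. Median centring of the arrays moved the median of all probe sets to 0.16 in CTR and 0.13 in cKO, and the calls in CTR were then 3 higher, Papss1 and Bpnt2 added, and 10 lower.

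Marker genes of other cells also moved with the tissue. The mean of 5 hypertrophic cartilage and bone markers was 5.60 to 6.45 in NP arrays, below or at background, and 9.85 to 13.61 in AF arrays, with 5 of 5 above background in the AF and 1 of 5 in the NP. The mean of 6 endothelial markers was 5.31 to 5.61 in NP and 6.72 to 8.54 in AF, and that of 7 cartilage markers 8.41 to 9.54 in NP and 11.37 to 15.96 in AF. Neutrophil markers, 8 in all, averaged 5.74 to 8.60 in NP and 6.55 to 14.25 in AF. The part of these cells in the tissue differences was not tested.

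**Figure D2:**
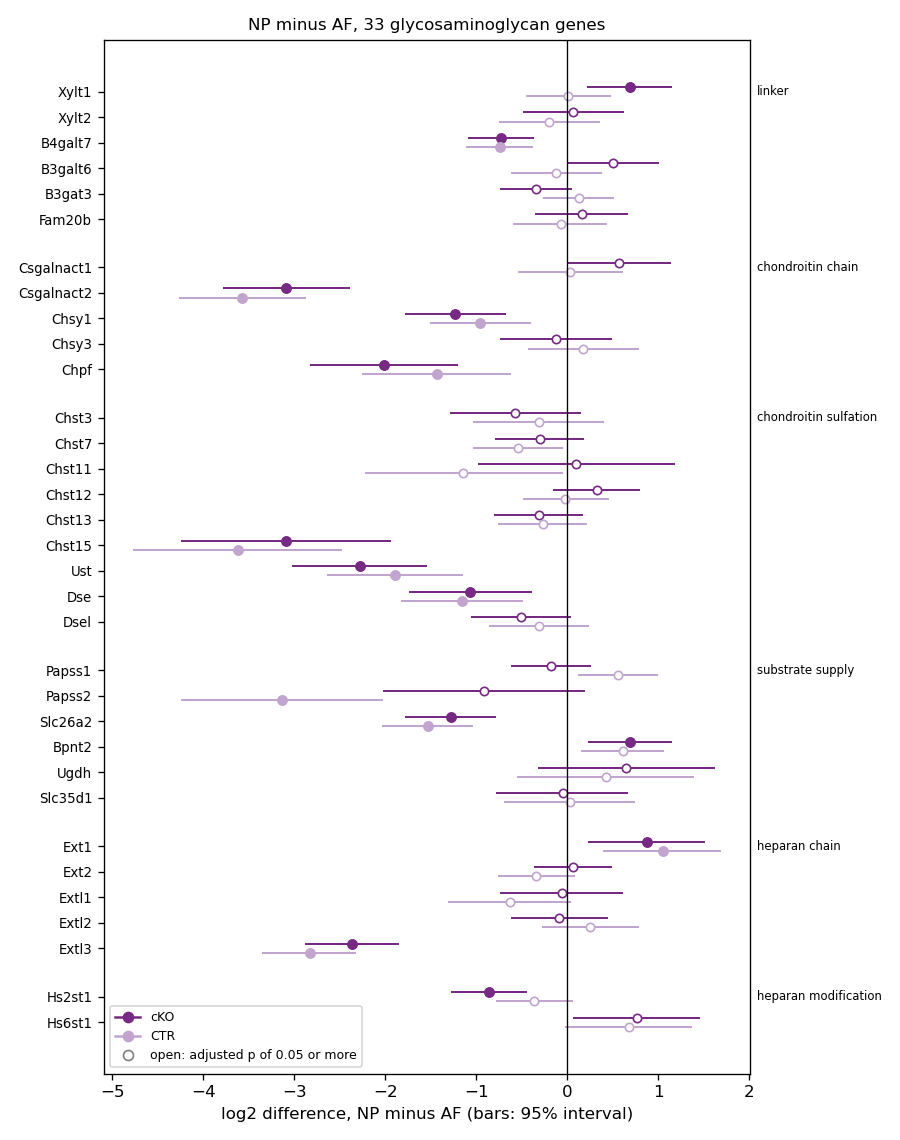
Log2 difference between NP and AF for the 33 genes by step, in cKO (dark, upper of each pair) and CTR (light, lower), with the 95% interval of the limma fit. Filled points have an adjusted p under 0.05. The lowest points are Csgalnact2, Chst15, Extl3 and, in CTR, Papss2, and Ext1 lies above 0 in both genotypes.

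The linker is begun by the xylosyltransferases, extended by galactosyltransferases and completed by B3gat3, which adds glucuronic acid. None of its 6 genes passed the test for genotype in either tissue. Xylt1, one of the xylosyltransferases, had log2 signals of 15.97, 16.33, 15.99 and 15.52 in the NP of cKO mice, against 15.89, 15.48, 15.83 and 16.15 in the NP of CTR mice. The same gene had 15.4, 15.34, 14.77 and 15.55 in the AF of cKO mice, against 15.88, 16.03, 15.51 and 15.87 in the AF of CTR mice. The groups overlapped in both tissues, and the AF difference was -0.56 (SE 0.22, adjusted p = 0.384). In cKO mice Xylt1 was 0.69 higher in the NP than in the AF (SE 0.22, 1.61-fold, adjusted p = 0.0291), against a difference of 0.01 in CTR mice. With the animal as a fixed block the cKO call was lost (adjusted p = 0.0526), as it was without NP cKO replicate 1, 2 or 3 or AF cKO replicate 2 or 3 (adjusted p 0.052 to 0.114).

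B4galt7 adds the first galactose and was the linker gene that was lower in the NP in both genotypes. Its log2 signals were 6.84, 6.67, 6.63 and 6.52 in NP cKO, against 7.15, 7.53, 7.72 and 7.16 in AF cKO. In CTR mice they were 6.82, 6.66, 6.84 and 6.65 in the NP, against 7.48, 7.51, 7.59 and 7.38 in the AF. The tissues did not overlap in either genotype, and the difference was -0.73 in cKO (SE 0.17, adjusted p = 0.00545) and -0.74 in CTR (SE 0.17, adjusted p = 0.00511). B3gat3 had signals of 8.25, 7.99, 8.1 and 7.97 in the AF of cKO mice, against 7.72, 7.81, 7.83 and 7.41 in the AF of CTR mice. In the AF the cKO arrays all lay above the CTR arrays, by 0.38 on average (SE 0.19, adjusted p = 0.476). In the NP its values overlapped, at 7.74, 7.52, 7.81 and 7.86 in cKO and 7.74, 7.78, 8.25 and 7.51 in CTR. Xylt2, the other xylosyltransferase, was near background, with signals of 6.02, 6.58, 5.99 and 6.39 in the NP of cKO mice, against 6.04, 6.29, 6.3 and 5.67 in the NP of CTR mice. It was as dim in the AF, at 5.6, 6.04, 6.03 and 7.02 in cKO and 6.35, 6.55, 5.89 and 6.3 in CTR. Fam20b, the kinase that phosphorylates the xylose, had group means of 10.60 to 10.91, and B3galt6, which adds the next galactose, of 6.11 to 6.62, and neither passed any test.

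Chondroitin chains are started by the N-acetylgalactosaminyltransferases Csgalnact1 and Csgalnact2 and extended by Chsy1, Chsy3 and the partner protein Chpf. None of these 5 genes passed the test for genotype. Csgalnact1 came closest, with log2 signals of 8.48, 8.11, 7.84 and 8.84 in the AF of cKO mice, against 9.8, 8.84, 8.95 and 9.6 in the AF of CTR mice. In the AF all cKO arrays were at or below the lowest CTR array, and the difference was -0.98 (SE 0.27, 95% interval -1.55 to -0.41, unadjusted p = 0.00201, adjusted p = 0.207). In the NP its signals were 8.59, 8.87, 9.1 and 8.98 in cKO and 9.44, 9.02, 9.92 and 8.94 in CTR. Here the groups overlapped, with a difference of -0.45 (SE 0.27, adjusted p = 1), and the difference between the tissues' effects was 0.54 (95% interval -0.28 to 1.35).

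Csgalnact2, the other starting enzyme, had the largest tissue difference of the 5 chain genes. It had log2 signals of 10.22, 10.42, 9.93 and 11.24 in NP cKO, against 12.82, 13.76, 13.99 and 13.6 in AF cKO. In CTR mice it had 10.24, 9.97, 10.36 and 10.59 in the NP, against 13.06, 14.67, 14.1 and 13.61 in the AF. Every NP array lay below every AF array, with a difference of -3.09 in cKO (SE 0.33, 8.5-fold, adjusted p = 3.88e-06) and -3.57 in CTR (SE 0.33, 11.9-fold, adjusted p = 6.14e-07). The NP minus AF difference of Csgalnact1 did not pass, at 0.57 in cKO (adjusted p = 0.131) and 0.03 in CTR (adjusted p = 0.949). Between cKO and CTR, Csgalnact2 differed by 0.16 in the NP and -0.32 in the AF, both with intervals that held 0.

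Of the genes that extend the chain, Chsy1 and Chpf were lower in the NP, and Chsy3 did not pass. Chpf had signals of 6.41, 8.32, 7.28 and 7.42 in NP cKO, against 9.31, 9.01, 10.41 and 8.76 in AF cKO. In CTR mice it had 7.35, 7.36, 7.46 and 7.47 in the NP, against 8.7, 9.76, 8.77 and 8.13 in the AF. NP cKO replicate 2, at 8.32, was the highest NP array and still below the lowest AF cKO array. The differences were -2.01 in cKO (SE 0.39, 4.03-fold, adjusted p = 0.00116) and -1.43 in CTR (SE 0.39, 2.70-fold, adjusted p = 0.0134). Chsy1 had 7.85, 8.66, 8.2 and 8.73 in NP cKO, against 9.52, 9.42, 10.34 and 9.08 in AF cKO. Its CTR values were 8.28, 8.5, 8.51 and 8.5 in the NP, against 9.46, 9.9, 9.04 and 9.2 in the AF. The tissues did not overlap, and the difference was -1.23 in cKO (adjusted p = 0.00264) and -0.96 in CTR (SE 0.26 each, adjusted p = 0.0152). Without AF CTR replicate 2 the CTR calls were lost for Chsy1 (adjusted p = 0.0554) and Chpf (adjusted p = 0.0525). Chsy3 had group means of 8.48 to 8.67.

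**Figure D3:**
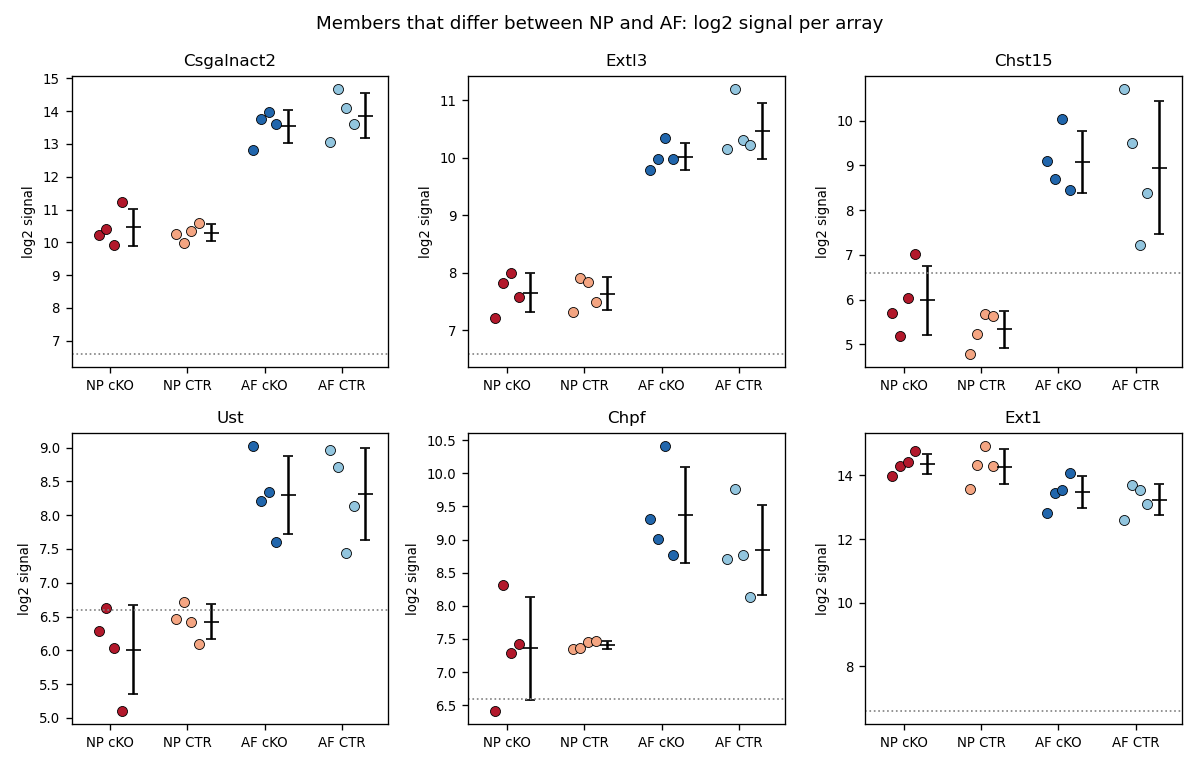
Log2 signal per array of Csgalnact2, Extl3, Chst15, Ust, Chpf and Ext1 in NP cKO, NP CTR, AF cKO and AF CTR, 4 arrays each in the order of replicates 1 to 4, with the mean and SD beside them. The dotted line at 6.59 is the highest array median of the negative control probe sets. The NP arrays of Chst15 and Ust lie around or below the line, and Ext1 is the 1 gene of the 6 that is higher in the NP.

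The sulfotransferases and epimerases that decorate chondroitin held 9 of the genes, and none passed the test for genotype. Chst11 sulfates N-acetylgalactosamine and is needed for cartilage growth in mice. Its log2 signals were 11.2, 11.66, 11.46 and 11.29 in the AF of cKO mice, against 14.69, 13.79, 11.57 and 12.88 in the AF of CTR mice. The cKO arrays lay close together, with an SD of 0.2, while that of the CTR arrays was 1.33, and CTR replicate 3 lay inside the cKO range. The AF difference was -1.83 (SE 0.52, 3.56-fold lower in cKO, unadjusted p = 0.00222, adjusted p = 0.22), and without AF CTR replicate 3 it was -2.39 (adjusted p = 0.027). In the NP its signals were 11.18, 13.13, 10.9 and 10.81 in cKO, against 12.05, 11.87, 12.35 and 12.13 in CTR. NP cKO replicate 2 was above every CTR array and the other 3 cKO arrays were below them, so that the difference was -0.60 (SE 0.52, adjusted p = 1).

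The spread of the AF control arrays ran beside that of the cartilage markers and of several other marker lists. The mean of the 7 cartilage markers was 12.08, 11.89, 12.67 and 11.37 in AF cKO, and 15.96, 14.86, 12.62 and 13.57 in AF CTR. In the CTR arrays Chst11, Papss2 and this mean were highest in replicate 1 and lowest in replicate 3. So were the means of the hypertrophic cartilage and bone (13.61 and 9.85), osteoclast (9.59 and 5.83), neutrophil (12.34 and 6.55) and macrophage markers (9.07 and 7.4). Those of the NP and notochord, annulus and tendon, muscle, erythroid and endothelial markers were not. Matn3, one of the cartilage markers, was 15.82 in AF CTR replicate 1 and 6.03, below background, in replicate 3. Chst15, at 10.7 and 7.22, and Ust, at 8.97 and 7.44, were also highest in replicate 1 and lowest in replicate 3. Slc26a2 was at 11.62, 11.31, 10.79 and 10.78 in AF CTR replicates 1 to 4. The part of this difference between the control samples in the results for Chst11, Papss2, Chst15, Ust and Slc26a2 was not tested.

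Chst3, which sulfates another position of the same sugar, had signals of 8.83, 9.3, 8.31 and 8.18 in the NP of cKO mice, against 9.67, 9.4, 10.18 and 8.85 in the NP of CTR mice. The groups overlapped, with a difference of -0.87 (SE 0.34, 1.83-fold, unadjusted p = 0.0208, adjusted p = 0.917). In the AF it had 8.45, 9.85, 9.78 and 8.82 in cKO, against 9.34, 9.98, 10.26 and 9.78 in CTR, a difference of -0.61 (adjusted p = 0.535). Chst12, which shares the target of Chst11, went the other way in the NP, where all cKO arrays, at 12.97 to 13.67, lay above the CTR arrays at 12.46 to 12.79. That difference was 0.52 (SE 0.23, adjusted p = 1). Across the 33 genes, 1 lay wholly higher and 4 wholly lower in NP cKO than in NP CTR, where 1.11% and 1.82% of all probe sets did.

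**Figure D4:**
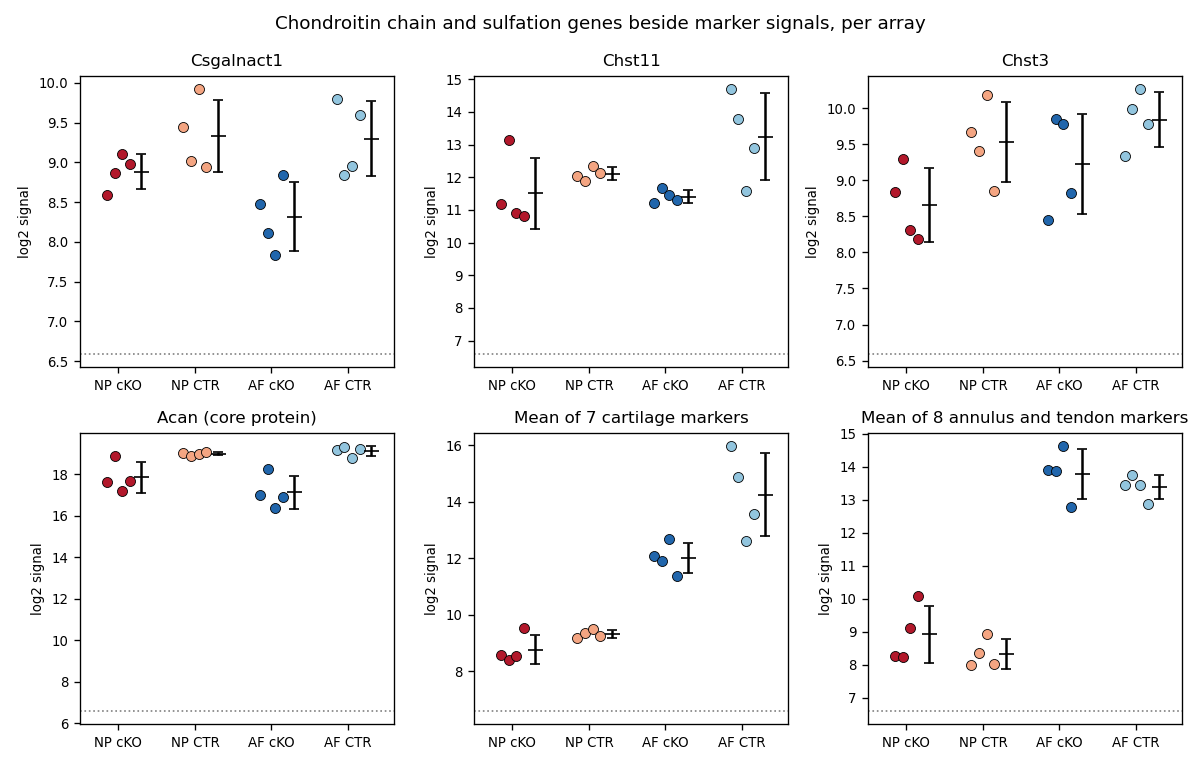
Log2 signal per array of Csgalnact1, Chst11, Chst3 and Acan, and the mean log2 signal of the cartilage and the annulus and tendon markers, in NP cKO, NP CTR, AF cKO and AF CTR, with the mean and SD beside the 4 points. The dotted line is the background level of 6.59. Chst11 and the cartilage markers both spread widely over the 4 AF CTR arrays, and NP cKO replicate 2 has an Acan signal in the control range and a Chst11 signal above every NP CTR array.

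Chst15, which adds a further sulfate to an already sulfated sugar, was measured above background only in the AF group means. Its signals were 5.69, 5.18, 6.04 and 7.01 in NP cKO, against 9.09, 8.69, 10.03 and 8.45 in AF cKO. In CTR mice they were 4.78, 5.23, 5.68 and 5.64 in the NP, against 10.7, 9.49, 7.22 and 8.38 in the AF. NP cKO replicate 4, at 7.01, was the 1 NP array above background, and no NP array reached an AF array of its genotype. The gene was at least 5.54-fold lower in the NP of cKO (adjusted p = 0.000592) and at least 5.36-fold lower in that of CTR (adjusted p = 0.000127), the bounds being set by the background level.

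Ust, which sulfates iduronic acid, behaved alike. Its signals were 6.29, 6.62, 6.03 and 5.1 in NP cKO, against 9.02, 8.21, 8.34 and 7.61 in AF cKO. Those of CTR mice were 6.46, 6.72, 6.42 and 6.09 in the NP, against 8.97, 8.71, 7.44 and 8.13 in the AF. The tissues did not overlap, and the NP was at least 3.35-fold lower in cKO (adjusted p = 0.000176) and at least 3.36-fold lower in CTR (adjusted p = 0.000866).

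Dse, the epimerase that turns glucuronic into iduronic acid and so makes dermatan, had signals of 8.16, 8.9, 8.63 and 8.88 in NP cKO, against 9.61, 10.04, 9.98 and 9.2 in AF cKO. In CTR mice it had 8.32, 8.03, 9.12 and 7.97 in the NP, against 8.89, 10.49, 9.5 and 9.2 in the AF. The tissues overlapped in CTR alone, and the difference was -1.07 in cKO (SE 0.32, adjusted p = 0.0211) and -1.16 in CTR (SE 0.32, adjusted p = 0.016). These calls rested on few arrays. The CTR call was lost without NP CTR replicate 2 or 4 or AF CTR replicate 2 (adjusted p = 0.0506, 0.0544 and 0.0597), and the cKO call without NP cKO replicate 1 or AF cKO replicate 2 or 3 (adjusted p = 0.0732, 0.0653 and 0.0623). Dsel, the related epimerase, had group means of 9.55 to 10.06 and was not called. Chst7 and Chst13, with group means of 6.10 to 6.78 and 5.66 to 6.02, were at or near background.

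The supply of sulfate and sugar donors was the step at which the called gene lay. Of its 6 genes, 5 were lower in cKO in the NP and 5 in the AF, where 11096 and 11901 of all 22206 probe sets were. The median difference of the 6 was -0.54 and -0.52, and 1 of 6 passed the test in each tissue. The 2 tissues came from the same mice. Slc26a2 is a sulfate transporter of the cell membrane, and its loss causes chondrodysplasias in humans. Its log2 signals were 8.34, 8.59, 7.93 and 8.16 in the NP of cKO mice, against 9.04, 9.83, 9.87 and 9.64 in the NP of CTR mice. In the AF they were 9.68, 9.52, 9.22 and 9.73 in cKO mice, against 11.62, 11.31, 10.79 and 10.78 in CTR mice. Every cKO array lay below every CTR array of its tissue. The difference was -1.34 in the NP (SE 0.24, 95% interval -1.84 to -0.84, adjusted p = 0.0277) and -1.59 in the AF (SE 0.24, 95% interval -2.09 to -1.09, adjusted p = 0.00728).

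Averaged over the tissues Slc26a2 fell by 1.46 on the log2 scale (SE 0.17, 2.76-fold lower), and this call held under all 27 alternatives run, with adjusted p of 7.95e-05 to 0.00136. The NP call alone was lost without NP cKO replicate 1, 3 or 4 or NP CTR replicate 2, 3 or 4 (adjusted p 0.0858 to 0.164), and both single-tissue calls were lost when the 8 arrays of the tissue were fitted alone (adjusted p = 0.0576 in the NP and 0.0651 in the AF). The effects in the tissues differed by 0.25 (SE 0.34, 95% interval -0.46 to 0.95). Slc26a2 was also lower in the NP than in the AF, with a difference of -1.28 in cKO (SE 0.24, adjusted p = 0.00086) and -1.53 in CTR (SE 0.24, adjusted p = 0.000169), so that AF cKO arrays, at 9.22 to 9.73, had about the signal of NP CTR arrays, at 9.04 to 9.87.

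Beside it, Acan fell by 2 on the log2 scale in the AF (SE 0.34, adjusted p = 0.0218), where its signals were 17.01, 18.23, 16.37 and 16.89 in cKO, against 19.19, 19.31, 18.8 and 19.2 in CTR. In the NP Acan had 17.62, 18.9, 17.21 and 17.66 in cKO, against 19.03, 18.89, 18.96 and 19.07 in CTR, and did not pass (-1.14, adjusted p = 0.513). The Cre, which is under the control of Acan, is named for cKO mice alone, and its part in the Acan signal was not tested. NP cKO replicate 2 had a control-like Acan signal, a low Sox9 signal of 9.55 and a Slc26a2 signal of 8.59, below all NP CTR arrays. In the NP the cartilage marker mean was 8.57, 8.41, 8.55 and 9.54 in cKO and 9.16, 9.36, 9.5 and 9.24 in CTR. Of the 7 markers, 4 averaged above background in NP cKO and 3 in NP CTR. The mean of cKO replicate 4 was the highest of all NP arrays, and the other 3 cKO arrays lay below the CTR arrays. In replicate 4 Comp, one of the markers, was at 11.53, against 6.27 to 7.25 in the other NP arrays. In the same array Col2a1, Acan and Hapln1, at 7.35, 17.66 and 14.44, lay below every NP CTR array. Matn3, Col9a1 and Ucma lay within the CTR range, each of them below background in every NP array. The part of these marker differences in the Slc26a2 result was not tested.

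**Figure D5:**
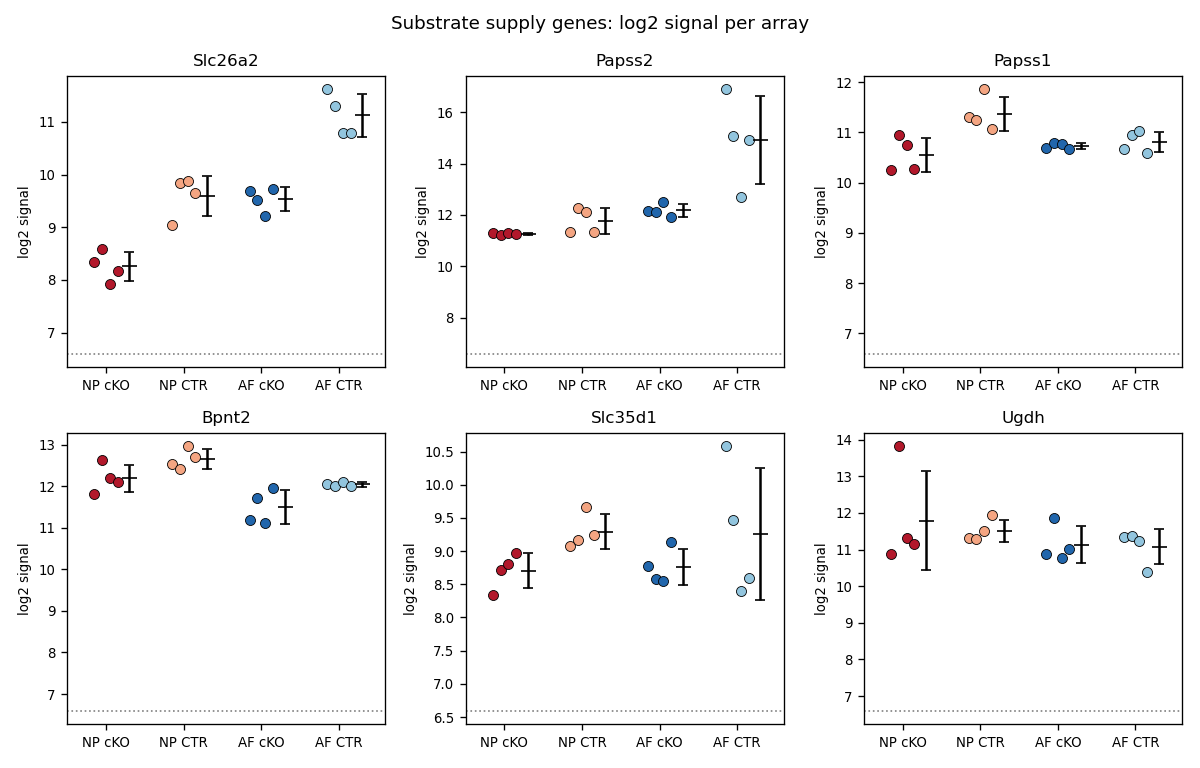
Log2 signal per array of the 6 substrate supply genes in NP cKO, NP CTR, AF cKO and AF CTR, 4 arrays each, with the mean and SD beside them and the background level of 6.59 dotted. Slc26a2 is lower in every cKO array than in the CTR arrays of its tissue, and Papss2 is lower in every cKO array with a spread of 12.71 to 16.89 in AF CTR.

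Papss2, the form of PAPS synthase that is known for cartilage, makes the activated sulfate donor. It had log2 signals of 12.16, 12.1, 12.51 and 11.94 in the AF of cKO mice, against 16.89, 15.09, 12.71 and 14.92 in the AF of CTR mice. No cKO array reached a CTR array, although the highest cKO array, at 12.51, lay just under AF CTR replicate 3, at 12.71. The difference of -2.73 was the largest of the 33 genes (SE 0.53, 6.61-fold lower in cKO, 95% interval -3.84 to -1.61), and it missed the threshold at an adjusted p of 0.0537. The SD of the AF CTR arrays was 1.71, against 0.24 in AF cKO. Without AF CTR replicate 3 the difference was -3.46 (adjusted p = 0.000128), and without AF CTR replicate 1 it was -2.06 (adjusted p = 0.0261).

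In the NP, Papss2 had 11.28, 11.22, 11.3 and 11.27 in cKO mice, against 11.34, 12.28, 12.12 and 11.35 in CTR mice. The groups again did not overlap, but by a margin of hundredths, and the difference was -0.51 (SE 0.53, adjusted p = 1). The effect in the NP minus that in the AF was 2.22 (SE 0.75, 95% interval 0.64 to 3.79, unadjusted p = 0.00828, adjusted p = 0.732). Between the tissues Papss2 was 8.74-fold lower in the NP of CTR mice (-3.13, SE 0.53, adjusted p = 0.000365), and in cKO mice the difference was -0.91 (adjusted p = 0.215). The CTR difference was -2.47 without AF CTR replicate 1 and -3.86 without AF CTR replicate 3, and stayed called.

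Papss1, the other PAPS synthase, was lower in NP cKO, with 10.25, 10.94, 10.75 and 10.27 in the NP of cKO mice, against 11.3, 11.24, 11.86 and 11.07 in the NP of CTR mice. The NP groups did not overlap, and the difference was -0.81 (SE 0.21, 1.76-fold, unadjusted p = 0.00105, adjusted p = 0.295). In the AF its group means were 10.73 ± 0.06 in cKO and 10.81 ± 0.21 in CTR (SD, n = 4). The 2 synthases thus had their larger difference in different tissues, although for Papss1 too the difference between the tissues' effects did not pass (-0.74, 95% interval -1.36 to -0.11, adjusted p = 0.732). In NP cKO against NP CTR the genes that lay wholly lower were Papss1, Papss2, Slc26a2 and Slc35d1. In AF cKO against AF CTR 5 genes lay wholly lower, which were B3galt6, Csgalnact1, Papss2, Slc26a2 and Bpnt2, and B3gat3 wholly higher, where 2.54% and 1.79% of all probe sets did.

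Bpnt2 is the Golgi phosphatase that clears the by-product of sulfation. It had signals of 11.81, 12.62, 12.2 and 12.11 in the NP of cKO mice, against 12.54, 12.42, 12.96 and 12.69 in the NP of CTR mice. In the AF it had 11.18, 11.72, 11.11 and 11.96 in cKO, against 12.05, 12, 12.11 and 12 in CTR. The AF groups did not overlap and the NP groups did, with differences of -0.55 in the AF (SE 0.22, adjusted p = 0.396) and -0.46 in the NP (SE 0.22, adjusted p = 1). Between the tissues it was higher in the NP, by 0.69 in cKO (SE 0.22, adjusted p = 0.0267) and by 0.61 in CTR (adjusted p = 0.0572). The cKO call was lost without NP cKO replicate 2 or 3 or AF cKO replicate 1 or 3 (adjusted p 0.0534 to 0.097).

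Slc35d1 carries UDP-sugars into the endoplasmic reticulum and had 8.34 to 8.97 in NP cKO, against 9.07 to 9.67 in NP CTR, a difference of -0.58 (SE 0.34, adjusted p = 1). In the AF it averaged 8.76 ± 0.27 in cKO and 9.26 ± 1 in CTR (SD, n = 4), with CTR replicate 1 at 10.58. Ugdh makes the UDP-glucuronic acid of the chains and averaged 11.79 ± 1.36 in NP cKO and 11.51 ± 0.30 in NP CTR. NP cKO replicate 2, at 13.82, made the cKO mean the higher one, since the other 3 cKO arrays were at 10.89 to 11.31. In the AF Ugdh averaged 11.14 ± 0.50 in cKO and 11.08 ± 0.47 in CTR.

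Promoter sequence was looked at for the SOX core motif, since the regulator removed is a SOX protein. RefSeq promoters of the mouse build GRCm38.p6, from 250 bases before to 50 bases after the start, were at hand for 28 of the 36 genes, 34 promoters in all. The letters ACAAAG or ACAATG, on either strand, were in 2 of the 34 (5.88%), one of Xylt2 and one of Chst3, where 28.6% of all 32851 promoters held them. The promoters of Slc26a2, Xylt1, Csgalnact1, Chsy3, Bpnt2, Ext1, Extl3 and Ndst1 were not analysed here. The promoters of the pathway were richer in G and C, with a median of 66.3% against 52.7% over all promoters, and held a median of 24 CpG dinucleotides, against 7. A match is a description and not a binding site. Chst3 is shown because it holds the motif, and Papss2, with 2 starts and none of the letters in these windows, because of the size of its AF difference. Capitals mark the motif in Chst3, whose first base lies at -172 from the start, and the base of the start itself in Papss2. The windows are chr10:60219211-60219510 on the minus strand, chr19:32595465-32595764 on the plus strand and chr19:32619755-32620054 on the plus strand.
Chst3: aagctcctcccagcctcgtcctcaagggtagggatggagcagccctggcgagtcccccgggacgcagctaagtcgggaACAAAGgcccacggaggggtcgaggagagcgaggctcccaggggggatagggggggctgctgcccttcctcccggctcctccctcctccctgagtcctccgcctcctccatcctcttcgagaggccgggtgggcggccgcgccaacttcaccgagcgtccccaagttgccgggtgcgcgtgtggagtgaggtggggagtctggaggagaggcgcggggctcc
Papss2 upstream start: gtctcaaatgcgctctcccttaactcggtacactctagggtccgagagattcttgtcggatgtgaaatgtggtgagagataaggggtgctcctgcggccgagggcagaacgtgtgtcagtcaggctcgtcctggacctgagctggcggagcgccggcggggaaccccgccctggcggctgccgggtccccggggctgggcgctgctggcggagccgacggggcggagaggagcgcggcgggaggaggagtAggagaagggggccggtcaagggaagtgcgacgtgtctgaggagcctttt
Papss2 downstream start: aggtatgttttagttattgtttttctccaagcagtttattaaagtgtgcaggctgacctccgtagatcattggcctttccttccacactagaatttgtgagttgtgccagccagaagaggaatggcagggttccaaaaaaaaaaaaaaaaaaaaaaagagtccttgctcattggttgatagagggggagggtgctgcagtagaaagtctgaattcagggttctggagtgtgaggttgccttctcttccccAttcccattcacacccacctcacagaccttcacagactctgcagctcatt

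The Papss2 windows differed in composition, with 66.3% G and C and 27 CpG at the upstream start and 44.3% and 1 CpG at the downstream start. The Chst3 window had 70% G and C and 22 CpG.

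Heparan chains are begun by Extl3 and extended by Ext1 together with Ext2. None of the 7 heparan genes measured passed the test for genotype. Extl3 had log2 signals of 7.22, 7.83, 7.99 and 7.59 in NP cKO, against 9.79, 9.97, 10.34 and 9.98 in AF cKO. In CTR mice it had 7.32, 7.91, 7.84 and 7.49 in the NP, against 10.15, 11.19, 10.31 and 10.23 in the AF. The highest NP array was at 7.99 and the lowest AF array at 9.79, and the difference was -2.37 in cKO (SE 0.24, 5.16-fold, adjusted p = 2.56e-06) and -2.83 in CTR (SE 0.24, 7.13-fold, adjusted p = 2.5e-07).

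Ext1 was the 1 gene called higher in the NP in both genotypes. Its signals were 13.98, 14.29, 14.41 and 14.76 in NP cKO, against 12.83, 13.46, 13.55 and 14.09 in AF cKO. The CTR values were 13.57, 14.32, 14.92 and 14.31 in the NP, against 12.61, 13.7, 13.53 and 13.1 in the AF. The tissues overlapped slightly in both genotypes, with differences of 0.88 in cKO (SE 0.31, 1.84-fold, adjusted p = 0.0428) and 1.05 in CTR (SE 0.31, 2.07-fold, adjusted p = 0.0213). The CTR call was lost without NP CTR replicate 3 or AF CTR replicate 1 (adjusted p = 0.0729 and 0.0791), and the cKO call without NP cKO replicate 2, 3 or 4 or AF cKO replicate 1, 2 or 3 (adjusted p 0.0604 to 0.131). Ext2, its partner, had group means of 7.64 to 7.98 and was not called.

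Extl2, which can end a chain at the linker, had signals of 8.18, 8.27, 8.1 and 8.33 in the NP of cKO mice, against 8.23, 8.71, 9.16 and 8.41 in the NP of CTR mice, and did not pass (-0.41, adjusted p = 1). In the AF it had 7.89, 8.12, 8.45 and 8.77 in cKO, against 8.04, 8.86, 8.72 and 7.89 in CTR, again overlapping. Extl1 had group means of 6.32 to 6.95, around background. Hs2st1, which sulfates the uronic acid of heparan, had 6.26, 6.74, 6.11 and 6.21 in NP cKO, against 6.96, 6.98, 7.3 and 7.5 in AF cKO. In CTR mice it had 6.6, 6.21, 6.7 and 6.76 in the NP, against 6.91, 7.14, 6.86 and 6.8 in the AF. The tissues did not overlap in either genotype, and the NP was at least 1.52-fold lower in cKO (adjusted p = 0.00449). In CTR, where the NP mean was also below background, the difference did not pass (adjusted p = 0.219).

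Hs6st1, which sulfates the glucosamine of heparan, had 6.44, 8.25, 6.77 and 6.62 in NP cKO, against 5.76, 6.7, 6.48 and 6.07 in AF cKO. Its CTR values were 6.81, 6.4, 6.53 and 6.48 in the NP, against 6.26, 6.02, 5.23 and 6.01 in the AF. The mean was above background in NP cKO alone, where replicate 2, at 8.25, stood above the rest, so no fold is given, and the tissues did not pass in cKO (adjusted p = 0.0937) or CTR (adjusted p = 0.165).

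Of 40 further genes of glycosaminoglycan synthesis, editing and breakdown, 35 were measured. By limma none passed the test for genotype in the NP, where 2 had an unadjusted p under 0.05, or in the AF, where 4 did, beside 4.58% and 10.6% of all probe sets. Has2, a hyaluronan synthase, came closest in the AF, at 6.84 ± 0.24 in cKO and 7.59 ± 0.19 in CTR (SD, n = 4; -0.74, adjusted p = 0.162). Between the tissues 13 of 35 passed in cKO, with 3 higher and 10 lower in the NP, and 15 of 35 in CTR, with 3 higher and 12 lower, where 25.9% of all probe sets passed in cKO and 20.1% in CTR. Sulf1, which trims sulfate from heparan outside the cell, had signals of 5.6, 6.13, 6.29 and 9.4 in NP cKO, with replicate 4 alone above background. It averaged 6.85 ± 1.72 in NP cKO, lower than the 12.29 ± 1.21 of AF cKO (limma, adjusted p = 1.39e-05). In CTR mice it was also lower in the NP, at 5.80 ± 0.32, below background, against 11.09 ± 0.74 in the AF (limma, adjusted p = 1.53e-05). Sulf2, the related sulfatase, went the other way, at 15.95 ± 0.28 in NP cKO and 14.94 ± 0.58 in AF cKO, and 15.70 ± 0.34 in NP CTR and 14.50 ± 0.61 in AF CTR (adjusted p = 0.021 and 0.00943). Chst1, a keratan sulfotransferase, averaged 7.98 ± 1.17 in NP cKO and 10.81 ± 0.65 in AF cKO, and 7.03 ± 0.49 in NP CTR and 10.11 ± 0.62 in AF CTR (adjusted p = 0.000306 and 0.000123). Arsb, a lysosomal sulfatase of chondroitin and dermatan, averaged 8.18 ± 0.35 in NP cKO and 10.66 ± 1.56 in AF cKO, and 8.69 ± 0.37 in NP CTR and 10.53 ± 0.94 in AF CTR (adjusted p = 0.00365 and 0.0249).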

How the data were processed

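Per the labels, RNA from RNeasy columns was labelled with the GeneChip WT Plus kit for 1-colour Affymetrix arrays. The deposited values are log2 signals from sst-RMA, per the labels, for which the submitters' processing notes name Transcriptome Analysis Console (version not given in the sources used here). Of 28846 probe sets, 6640 controls were left out. Of the 22206 tested, 19572 have exactly 1 gene symbol in the platform annotation. The remaining 2634, with no symbol or more than 1, were not named here. The authors' normalization was kept.

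The 4 group means were fitted to all 16 arrays with limma 3.58.1 in R 4.3.3 (lmFit, eBayes). Benjamini-Hochberg adjustment ran over the 22206 probe sets, with calls at 0.05; folds and SEs are from this fit. The script was tested on simulated data. "At least" folds are set against, per array, the higher of the dim probe's signal and the negative control median.

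The sample titles give NP and AF of 1 mouse a shared code. Around the group means, these pairs correlated with r of -0.293 to 0.348 (3 of 8 pairs over 0.1), and those of cKO and CTR mice with a shared number with -0.275 to 0.208 (4 of 8). Blocks for mouse or number were alternatives, beside other scalings, probe filters, moderation, array weights, the labels' thresholds, fewer arrays and each array left out.

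The genes, lists and rules were chosen with earlier results of these data known. Every array is given for genes called in any comparison and for the 2 of each step with the smallest p averaged over the tissues or between them in CTR. A comparison of related protein sequences was not made.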

Additional observations from a re-analysis of the deposited data

Results flagged for a closer look

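In 8 of 132 groups of 4 arrays, 1 array stood apart from the other 3 by Dixon's ratio, and chance flags about 1 group in 20. NP cKO replicate 2 was the array in 3 of them: it was high for Ugdh (13.82, the other 3 at 10.89 to 11.31), for Chst11 (13.13, the others at 10.81 to 11.18) and for Chsy3 (9.32, the others at 8.20 to 8.33). Ugdh was also low in AF CTR replicate 4 (10.38, the others at 11.24 to 11.37). Extl3 was high in AF CTR replicate 2 (11.19, the others at 10.15 to 10.31), and Extl1 in NP CTR replicate 4 (6.73, the others at 6.14 to 6.22). Chsy1 was low in NP CTR replicate 1 (8.28, the others at 8.50 to 8.51), and Dsel in AF cKO replicate 1 (9.58, the others at 10.21 to 10.22).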

How the results depend on the processing

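The fit of 33 genes was repeated under each alternative. Between cKO and CTR, the thresholds of the labels gave 3 genes in the NP (Chst3, Papss1, Slc26a2), 4 in the AF (Csgalnact1, Chst11, Papss2, Slc26a2), 3 averaged over the tissues (Chst11, Papss2, Slc26a2) and 1 for the difference of effects (Papss2). The 8 arrays of a tissue alone gave 0 in the NP and 0 in the AF. In the AF, 2 genes (Papss2, Slc26a2) were called after quantile normalization, with the filter on dim probe sets, with 1 probe set per gene, and without AF CTR replicate 1 and AF cKO replicate 3 together. Leaving out each array gave 0 to 1 genes in the NP, 1 to 3 in the AF, 1 to 3 averaged and 0 for the difference. It gave 8 to 13 between the tissues in CTR and 9 to 13 in cKO. The difference of the Slc26a2 effects turned to -0.02 without AF CTR replicate 1 and AF cKO replicate 3. Of 774 repeats of 37 gene results, 710 kept direction and call, 46 lost the call, 17 gained it and 1 turned. The cause was not tested. A replicate block for the animal or the number left 1 gene called in the NP and 1 in the AF, and between the tissues in cKO the animal as a fixed block also gave 13, without Xylt1 (adjusted p = 0.0526). Among the 37 gene results it changed no other call that the text gives as passed, and calls of other genes under the alternatives were not examined. With ACAAAG alone or ACAATG alone, 1 gene each held the motif in place of 2. Signals near the background of 6.59 limit what can be said of Xylt2, B3galt6, Chst7, Chst13, Extl1 and Hs6st1 and, in the NP, B4galt7, Chst15, Ust and Hs2st1.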

Other observations

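The core proteins that carry these chains were set beside the pathway genes. Decorin (Dcn) averaged far less in the NP than in the AF, yet 1 NP cKO array reached the AF signal. Its log2 signals were 7.39, 7.61, 14.12 and 18.97 in NP cKO, against 6.18, 6.86, 10.65 and 6.67 in NP CTR, with 18.63 to 19.92 in AF cKO and 16.15 to 18.62 in AF CTR. Versican (Vcan) was at 7.30, 6.64, 9.18 and 15.68 in NP cKO, against 6.27, 7.26, 8.29 and 6.70 in NP CTR. Biglycan (Bgn) was at 12.17, 16.06, 11.70 and 14.90 in NP cKO, against 11.78, 10.53, 11.36 and 11.60 in NP CTR. None of the 3 passed the test in the NP (limma, adjusted p = 0.908, 1 and 0.402). NP cKO replicate 4 had the highest Dcn and Vcan signal of the NP arrays. Its mean of 8 annulus and tendon markers, Dcn among them, was 10.08, against 8.22 to 9.10 in the other 3 NP cKO arrays. Of these markers Dcn (18.97) and Lum (8.74) rose most above the other NP arrays. Col1a2, at 9.39, lay little above them and far below the AF arrays, at 16.47 to 19.54. Col1a1 (9.31), Scx (5.56), Mkx (5.73), Fmod (16.97) and Tnmd lay within the range of the other NP arrays. The same array had the highest NP signals of Chst15 (7.01), Csgalnact2 (11.24), Sulf1 (9.4) and Prg4 (15.35). The part of annulus tissue in these values was not tested.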
